A study of Mus musculus with 11 samples.

Results

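The major histocompatibility complex (MHC) and antigen presentation genes were described in tumors and in adjacent normal tissue from the lungs of Gprc5a-/- mice. The set held 32 genes, 12 of the class II pathway and 20 of the class I pathway, out of 24515 genes in the deposited table. Its members were taken by gene symbol from a fixed list, without use of their measured values, and the 44 transcript rows that carried those symbols, of 36285 in the table, were summed by gene. All 32 members passed the filter on low counts, and the lowest count of any member in any library was 90.

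The 11 libraries came from 5 mice that all lacked Gprc5a, an epithelial receptor gene, and had all been given NNK, a tobacco-specific nitrosamine carcinogen. The agent was injected into the peritoneum at 50 mg/kg, 3 times per week, for 8 weeks. The groups were adjacent normal lung (n = 5), tumors with the tag ADN (n = 3) and tumors with the tag ADC (n = 3), tags that the labels do not spell out. Mouse m335, taken 4 months after NNK, gave a normal lung, an ADN tumor and an ADC tumor. A normal lung and an ADN tumor came from each of m368 (6 months) and m350 (7 months), and a normal lung and an ADC tumor from each of m372 and m378 (7 months). Time after NNK and mouse cannot be told apart for m335 and m368, the only mice at their times. Wild-type and untreated lungs were not analysed here, so all values concern knockout, NNK-exposed tissue, and the labels give neither strain nor sex.

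Libraries held 19938822 to 46987587 estimated counts, of which 7.29% to 19.2% fell on the ribosomal RNA gene Rn45s. Gprc5a itself lay between 0 and 0.642 CPM (counts per 1000000 counts of the library) in all libraries. Levels below are CPM on library sizes scaled by trimmed means (TMM). The p-values measure the spread between these samples, with each mouse as a block, and a call means a Benjamini-Hochberg adjusted p under 0.05 over 15175 genes. The tissue was sampled in bulk, so fewer cells of a type and less RNA per cell cannot be told apart.

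MHC class I molecules, a heavy chain paired with beta-2-microglobulin, display peptides cut by the proteasome and carried into the endoplasmic reticulum by the TAP transporter. Nearly all nucleated cells make them, and interferon-gamma raises heavy chains, TAP and the immunoproteasome subunits together, with Nlrc5 as a transcriptional activator. Class II molecules display peptides from endosomes, are chaperoned by the invariant chain Cd74 and are switched on by the activator Ciita. In the lung, dendritic cells, B cells and macrophages carry class II, and so do alveolar type 2 cells, the surfactant-making epithelium.

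The sequences before the transcription starts are shown because they hold the elements through which class I and class II genes are known to be controlled. RefSeq (GRCm38.p6) gave windows for 26 of the 32 members, and the 250 bases before the start were searched on both strands for 5 motifs. Capitals mark matches to the CCAAT or Y box ATTGG, the X2 box core TGACG, the X-box-like AACNGATG, the interferon regulatory factor core AANNGAAA and the kappa B site GGGATTCCC, which can overlap.
H2-Aa (chr17:34287824-34288073, minus strand): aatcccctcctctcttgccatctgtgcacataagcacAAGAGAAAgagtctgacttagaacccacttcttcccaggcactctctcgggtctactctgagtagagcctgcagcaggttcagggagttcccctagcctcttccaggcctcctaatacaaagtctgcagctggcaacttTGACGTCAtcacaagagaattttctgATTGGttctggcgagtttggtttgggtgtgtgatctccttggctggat
H2-Eb1 (chr17:34305617-34305866, plus strand): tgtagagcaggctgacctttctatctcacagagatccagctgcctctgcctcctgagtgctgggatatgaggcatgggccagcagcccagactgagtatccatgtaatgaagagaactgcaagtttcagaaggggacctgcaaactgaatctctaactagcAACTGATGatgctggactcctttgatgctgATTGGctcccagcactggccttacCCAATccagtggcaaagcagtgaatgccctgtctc
H2-K1 (chr17:34000334-34000583, minus strand): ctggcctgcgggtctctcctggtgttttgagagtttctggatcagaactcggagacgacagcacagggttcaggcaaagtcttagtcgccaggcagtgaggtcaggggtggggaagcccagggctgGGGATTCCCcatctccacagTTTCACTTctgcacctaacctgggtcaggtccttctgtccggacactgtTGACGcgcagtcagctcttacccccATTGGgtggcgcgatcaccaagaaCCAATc
H2-D1 (chr17:35262844-35263093, plus strand): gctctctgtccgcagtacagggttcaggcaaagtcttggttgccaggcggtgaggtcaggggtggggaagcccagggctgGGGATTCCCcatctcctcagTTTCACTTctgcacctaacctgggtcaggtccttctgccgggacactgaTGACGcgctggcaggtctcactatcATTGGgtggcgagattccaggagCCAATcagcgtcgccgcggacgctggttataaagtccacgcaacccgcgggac
B2m (chr2:122147437-122147686, plus strand): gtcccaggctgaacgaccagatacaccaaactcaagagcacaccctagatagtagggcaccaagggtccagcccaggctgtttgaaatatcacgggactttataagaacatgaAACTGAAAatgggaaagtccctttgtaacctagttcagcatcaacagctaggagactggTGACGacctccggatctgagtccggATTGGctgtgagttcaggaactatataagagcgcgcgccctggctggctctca
Tap1 and Psmb9, shared interval (chr17:34187331-34187555, plus strand): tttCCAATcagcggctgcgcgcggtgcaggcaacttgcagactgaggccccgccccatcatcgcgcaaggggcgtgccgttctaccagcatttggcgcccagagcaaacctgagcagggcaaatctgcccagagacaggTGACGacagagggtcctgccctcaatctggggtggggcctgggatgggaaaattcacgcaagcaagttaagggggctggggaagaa
H2-Aa and H2-Eb1 encode class II chains, H2-K1 and H2-D1 encode class I heavy chains, and Tap1 and Psmb9 are transcribed in opposite directions from the interval shown.

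The Y box letters occurred in 7 of 9 matched class II members and in 14 of 17 matched class I members, against 33.8% of all 32851 promoter windows of the same length. The kappa B letters occurred in 4 class I members (H2-K1, H2-D1, H2-Q6 and H2-Q7) and no matched class II member, against 0.301% of windows. The X-box-like letters occurred in 4 class II members (H2-Eb1, H2-DMb1, H2-DMb2 and Ctss) and in 0 of 17 class I members, against 1.98% of windows. TGACG was in 2 class II and 10 class I members (17.8% of windows), and the interferon regulatory factor core was in 3 class II and 9 class I members (21.3% of windows). Related genes share promoter sequence by descent, so these matches are not independent of one another.

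In 5 of the 6 tumors the class II median was above, and the class I median below, the own normal lung, meaning the lung taken from the tumor's mouse, though in 2 of these 5 the class II direction turned with the scaling. The median log2 difference of the 12 class II members was 0.63 in the ADN tumor of m335, 0.20 in that of m368, 0.02 in that of m350, 0.73 in the ADC tumor of m372 and 0.59 in that of m378. In the same tumors the median of the 20 class I members was -0.82, -0.39, -0.93, -0.68 and -0.75. The ADC tumor of m335 differed from these: all 32 members were higher than in its normal lung, with medians of 2.32 for class II and 1.53 for class I. The median over all 14621 genes with a mean of at least 20 counts lay between -0.11 and 0.01 in the 6 tumors. In the ADN tumors of m368 and m350, 7 of 12 class II members were above the own lung, and under library totals their class II medians turned to -0.040 and -0.094, where the medians over all genes were -0.33 and -0.18. The class II median was thus above the own lung in the other 4 tumors under both scalings.

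**Figure D1:**
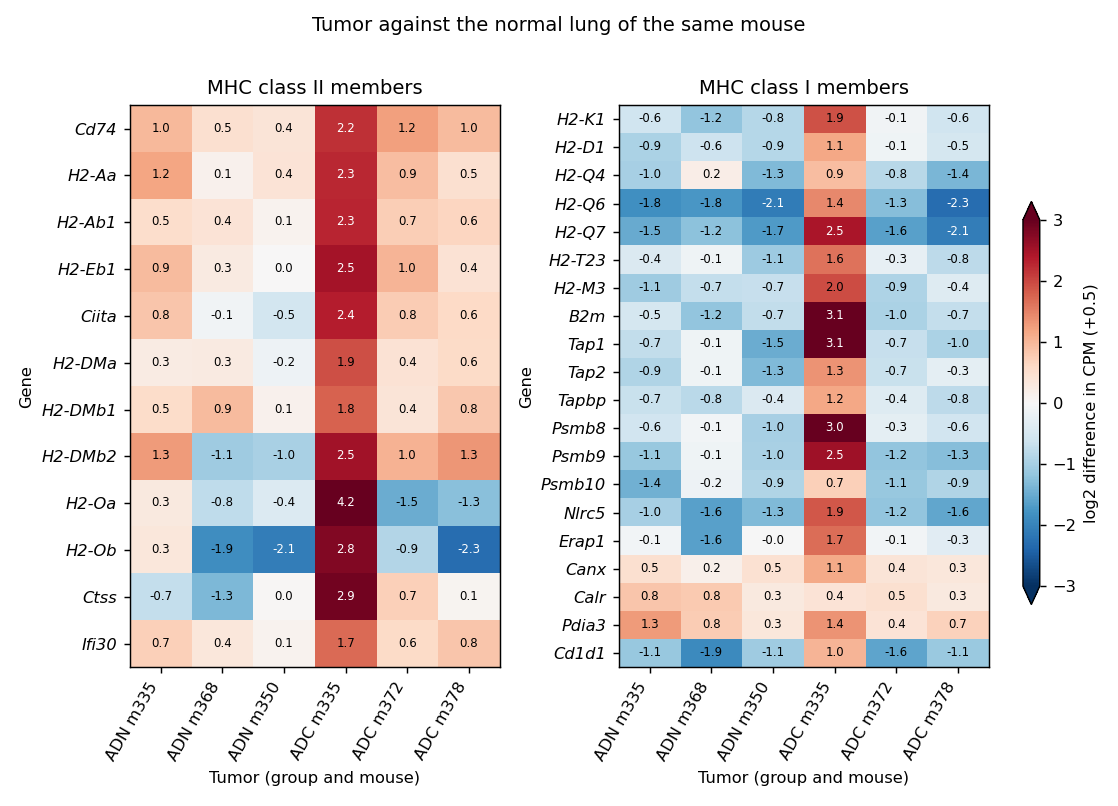
Log2 difference of each tumor from the normal lung of its own mouse (CPM plus a pseudocount of 0.5), for 12 class II members (left) and 20 class I members (right), with 1 column per tumor; red is higher and blue lower in the tumor. The column of the ADC tumor of m335 is red throughout, and in the other 5 tumors the class I column is blue except for Canx, Calr, Pdia3 and, in the ADN tumor of m368, H2-Q4.

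With all libraries in the fit, few members passed the test. In tumors against normal lungs, edgeR called 11.6% of all genes, 3.68% higher and 7.91% lower (558 and 1201 genes, against 359 and 1712 under library totals). Of class II members 0 of 12 were called (4 at an unadjusted p under 0.05, all higher, as were 1643 of 15175 genes, with 2359 lower), and DESeq2 called 4 of 12 higher, beside 8.48% of all genes called higher by that tool. Of class I members 1 of 20, the chaperone Pdia3, was called higher, and none was called lower. The median log2 fold change was 0.61 for class II and -0.31 for class I, beside -0.03 over all genes tested.

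In ADN tumors against normal lungs edgeR called 7.53% of genes (407 higher and 735 lower, against 332 and 1056 under library totals) and none of the 32 members. At an unadjusted p under 0.05 there were 2 members higher and 8 lower, beside 1364 and 2277 of 15175 genes. DESeq2 called 6 class I members lower there (H2-K1, H2-D1, H2-Q6, H2-Q7, Nlrc5 and Cd1d1), 2 class I members higher (Calr and Pdia3) and 1 class II member lower (H2-Ob), with 12.3% of all genes called lower and 7.0% higher. The median log2 fold change in ADN tumors was 0.03 for class II and -1.08 for class I, beside -0.08 over all genes. The fit shares the block of m335 with its ADC tumor, and without that library the ADN medians were 0.30 and -0.72. In ADC tumors against normal lungs edgeR called 4.99% of genes, 1.01% higher, and 1 of 12 class II members, Cd74, which was higher. Another 9 class II members were higher at an unadjusted p under 0.05, beside 1136 of 15175 genes, and DESeq2 called 10 of 12 higher, beside 3.64% of all genes. The medians in ADC tumors were 1.16 for class II and 0.33 for class I, beside 0.00 over all genes. Without the ADC tumor of m335 they were 0.71 and -0.61, and 17 of 20 class I members were below the own lung in each of the other 2 ADC tumors.

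Between ADC and ADN tumors edgeR called 0.0% of genes (992 at an unadjusted p under 0.05) and 0 of 32 members. At an unadjusted p under 0.05, 8 class II and 7 class I members were higher in ADC, beside 642 of 15175 genes. DESeq2 called 125 genes, among them 1 member, Ctss, higher in ADC. Without the ADC tumor of m335 the median log2 fold change of ADC against ADN was 0.28 for class II and -0.04 for class I. The median over all genes tested was then 0.04.

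Without the ADC tumor of m335, edgeR called 9.58% of 15106 genes higher and 12.8% lower in tumors against normal lungs. Among class II members 5 of 12 were then higher (Cd74, H2-Aa, H2-Ab1, H2-DMb1 and Ifi30) and 1, H2-Ob, was lower. Among class I members 14 of 20 were lower (H2-K1, H2-D1, H2-Q4, H2-Q6, H2-Q7, H2-M3, B2m, Tap1, Tap2, Tapbp, Psmb9, Psmb10, Nlrc5 and Cd1d1) and 2 were higher (Calr and Pdia3). The tumor left out was the 1 in which all 32 members were above the own lung, so this fit is not independent of their values. Its p-values, here and for single genes below, are descriptive. The 3 normal lungs and 3 tumors at 7 months alone, which hold no library of m335, gave 8.88% of genes higher and 11.2% lower. They had 1 class II member higher (Cd74), 2 lower (H2-Oa and H2-Ob) and 12 of 20 class I members lower.

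Cd74, the class II invariant chain that chaperones new class II dimers, was the most abundant member. Per kilobase of transcript it stood at 2715 ± 320 CPM (SD, n = 5) in normal lungs, followed by B2m at 1448 ± 385 and H2-D1 at 1414 ± 617. Not scaled by length, Cd74 measured 3408, 3740.1, 3619, 2826 and 3915 CPM in the normal lungs of m335, m368, m350, m372 and m378. It measured 6695, 5184 and 4756 CPM in the ADN tumors of m335, m368 and m350, and 15641, 6683 and 7594 CPM in the ADC tumors of m335, m372 and m378. Every tumor lay above every normal lung. How many of all genes part in this way was not determined, here or for the members below. The log2 fold change was 0.99 (SE 0.32, edgeR adjusted p = 0.0842) for all tumors, 1.44 (SE 0.29, adjusted p = 0.0328) for ADC tumors and 0.48 (SE 0.30, adjusted p = 0.375) for ADN tumors. Without the ADC tumor of m335 it was 0.85 for all tumors (SE 0.17, adjusted p = 0.00773).

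The call of Cd74 in ADC tumors was lost when any 1 of the 5 mice, or the normal lung or ADN tumor of m335, was left out, and under library totals. It held without the ADC tumor of m335 (log2 fold change 1.12, SE 0.25, adjusted p = 0.0399). The longer of the 2 annotated Cd74 transcripts (1410 and 1224 bases) held 35.4% to 41.6% of its estimated counts in normal lungs. It held 39.2% to 49.6% in 5 tumors and 24.95% in the ADC tumor of m335, the only tumor below its own normal lung.

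H2-Aa and H2-Ab1, the alpha and beta chains of the I-A class II molecule, followed Cd74. With mice in the same order, H2-Aa measured 999, 1218, 1073, 1066 and 1195 CPM in normal lungs, 2277, 1330.1 and 1436 CPM in ADN tumors and 4808, 2029 and 1656 CPM in ADC tumors. Under TMM scaling every tumor was again above every normal lung. Under library totals H2-Aa in the ADN tumor of m368 (1207 CPM) was below its own lung (1302 CPM). The log2 fold change for all tumors was 0.79 (SE 0.32, edgeR adjusted p = 0.163). H2-Ab1 measured 1041, 1209.8, 1431, 800.5 and 1321 CPM in normal lungs, 1497, 1613 and 1543 CPM in ADN tumors and 5077, 1338 and 2055 CPM in ADC tumors. The H2-Ab1 groups overlapped, though each tumor was above its own normal lung. Under library totals H2-Ab1 in the ADN tumor of m350 (1512 CPM) was just below its own lung (1521 CPM). The log2 fold change of H2-Ab1 was 0.75 (SE 0.37, edgeR adjusted p = 0.241). Without the ADC tumor of m335 the fold changes were 0.67 for H2-Aa (SE 0.19, adjusted p = 0.0314) and 0.53 for H2-Ab1 (SE 0.15, adjusted p = 0.0329).

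**Figure D2:**
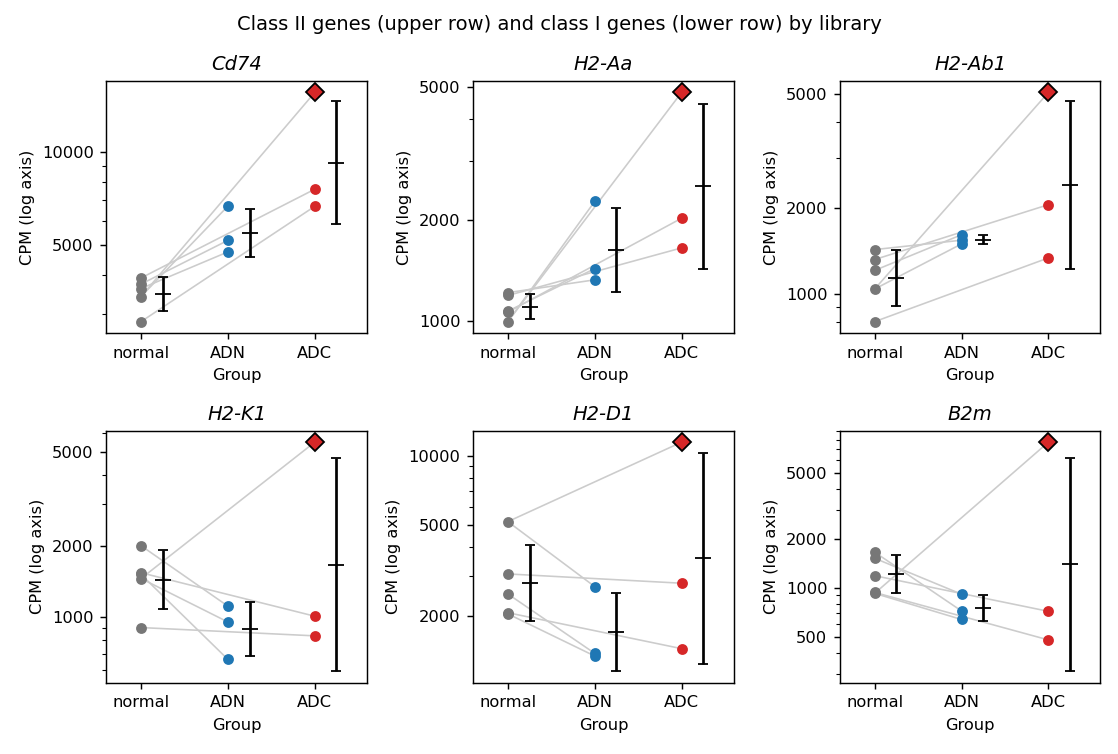
CPM on a log axis in each library for 3 class II genes (Cd74, H2-Aa, H2-Ab1) and 3 class I genes (H2-K1, H2-D1, B2m) by group; grey lines join a tumor to the normal lung of its mouse, bars are the mean ± 1 SD of log2 CPM (n = 5, 3 and 3), and the diamond is the ADC tumor of m335. Under the TMM scaling shown, all 6 tumors lie above their own lung for the class II genes, and for the class I genes only the diamond does.

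H2-Eb1, the beta chain of the I-E class II molecule, differed more between mice than between tumor and lung. It measured 20.9, 696, 881, 22.5 and 819 CPM in the normal lungs of m335, m368, m350, m372 and m378. The ADN tumors of m335, m368 and m350 had 40.8, 836 and 893 CPM, and the ADC tumors of m335, m372 and m378 had 121, 46.1 and 1104 CPM. All 5 libraries of m335 and m372 were thus at or under 121 CPM, and all 6 libraries of the other mice at or above 696 CPM. Within each mouse the tumor was above the lung, though in m350 by a log2 difference of only 0.02. Under library totals the ADN tumor of m350 (875 CPM) was below its own lung (936 CPM). The log2 fold change of H2-Eb1 was 0.77 (SE 0.38, edgeR adjusted p = 0.246).

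Relative to H2-Ab1 of the same library, H2-Eb1 CPM stood at 2.01% to 3.44% in m335 and m372 and at 51.8% to 62.0% in the other mice. An edgeR test of the mouse term, added after these levels were seen, called 4 of 15175 genes (0.0264%). None of the 32 members was among them: H2-Eb1 had an unadjusted p of 7.29e-05 and an adjusted p of 0.0948. DESeq2 was not run for this term, and 3 further members were under an unadjusted p of 0.05, H2-D1 (0.0233), H2-T23 (0.0416) and H2-DMb2 (0.0487), beside 789 of 15175 genes.

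H2-D1 ran the other way from H2-Eb1, with 2697 to 11471 CPM in m335 and 2789 to 3061 CPM in m372 against 1344 to 2505 CPM in the remaining mice. H2-T23, the heavy chain of the non-classical molecule Qa-1, had 44.7 to 53.4 CPM in m372 and 45.1 to 189.8 CPM in m335, against 153 to 325 CPM in the remaining mice. Among class I genes outside the member list, H2-Q2 measured 27.6 to 82.5 CPM in the 5 libraries of m335 and m372 and 4.46 to 9.48 CPM in the others (adjusted p = 0.0948 for the mouse term by edgeR).

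Of the 32 members 20 lie between positions 33919478 and 37274485 of chromosome 17 (mm10), 8 of class II and 12 of class I. In that interval 1 of 128 other tested genes was called for the mouse term. The Y-linked gene Ddx3y, which was called (adjusted p = 0.0256), had 17.7 to 45.2 CPM in the libraries of m335 and m372 and at most 0.453 CPM in the others. The part of sex, of strain and of read alignment to the reference MHC haplotype in the H2-Eb1 levels was not tested.

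**Figure D3:**
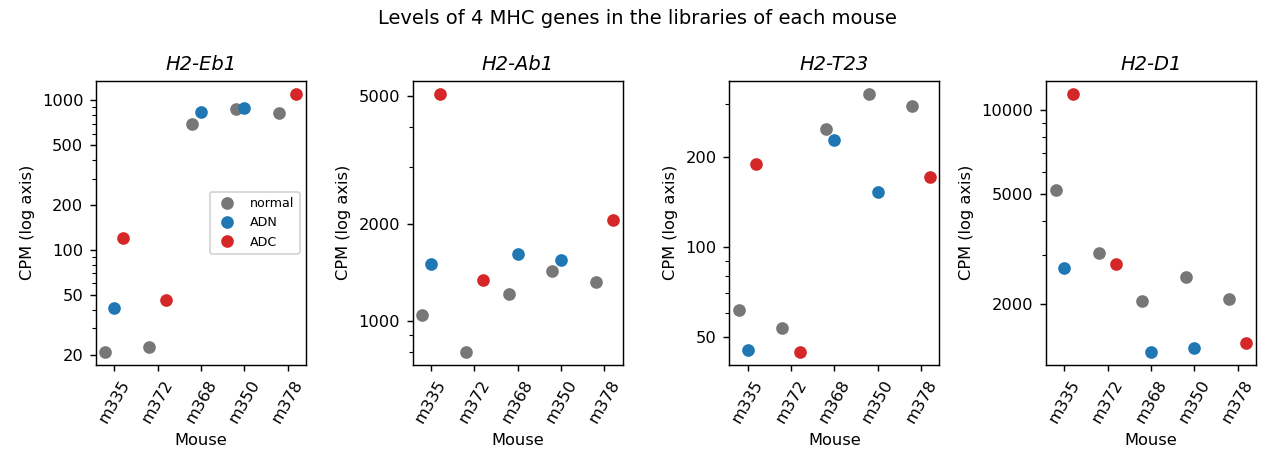
CPM on a log axis of H2-Eb1, H2-Ab1, H2-T23 and H2-D1 in each library, arranged by mouse and coloured by group. H2-Eb1 stays at or under 121 CPM in m335 and m372 and at or above 696 CPM in m368, m350 and m378, while H2-Ab1 shows no such gap.

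Ciita, the master activator of class II transcription, measured 22.7, 33.3, 51.3, 24.5 and 39.1 CPM in normal lungs, 40.6, 30.7 and 35.0 CPM in ADN tumors and 119, 42.1 and 59.9 CPM in ADC tumors. The ADN tumors lay within the range of normal lungs, and 4 of 6 tumors were above their own lung. The log2 fold change was 1.16 in ADC tumors (SE 0.34, edgeR adjusted p = 0.109) and -0.16 in ADN tumors (SE 0.35, adjusted p = 0.827).

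Ciita is transcribed from alternative promoters with different first exons, which are known for use in different cell types. Its 5 annotated transcripts start at positions 10480072 (3 transcripts), 10488178 and 10489781 of chromosome 16. The transcript with the last start took 63.4%, 40.7%, 44.2%, 73.8% and 51.7% of the Ciita counts in normal lungs, with mice in the order above. It took 58.2%, 71.7% and 65.4% in ADN tumors and 69.3%, 70.6% and 68.1% in ADC tumors. The share was above that of the own lung in 4 of 6 tumors, and the normal lung of m372 exceeded all tumors. That lung also held 462 CPM summed over 9 thymus genes, and the part of thymus cells in its Ciita counts was not tested. The Ciita shares rest on the authors' estimated division of counts among overlapping transcripts and were not tested.

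The peptide-exchange factors H2-DMa and H2-DMb1, whose products load class II molecules, were above the own lung in 5 and 6 of 6 tumors. H2-DMb1 ranged from 87.0 to 169 CPM in normal lungs and from 114 to 318 CPM in tumors (log2 fold change 0.74, SE 0.28, edgeR adjusted p = 0.125). H2-DMb2, a near copy of H2-DMb1, was above the own lung in 4 of 6 tumors and below it in the ADN tumors of m368 and m350. Ifi30, the thiol reductase that unfolds endocytosed antigens, was above the own lung in 6 of 6 tumors, at 105 to 179 CPM in normal lungs and 153 to 463 CPM in tumors (log2 fold change 0.67, SE 0.26, adjusted p = 0.138). Under library totals Ifi30 in the ADN tumor of m350 (150.3 CPM) was just below its own lung (151.4 CPM). Ctss, the cathepsin that trims Cd74, reached 1021 CPM in the ADC tumor of m335 and 83.9 to 208 CPM in the other tumors, against 86.2 to 355 CPM in normal lungs.

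H2-Oa and H2-Ob, whose products form the DM inhibitor found mainly in B cells, were below the own lung in 4 tumors. In the ADC tumors of m372 and m378 the other 10 of 12 class II members were above it. In the ADN tumors of m368 and m350 only 7 of 12 were above it, and their class II medians turned under library totals. There H2-DMb2 and Ciita were also below the own lung. H2-Ob measured 4.96, 29.5, 32.9, 10.2 and 24.7 CPM in normal lungs, 6.39, 7.71 and 7.46 CPM in ADN tumors and 37.0, 5.33 and 4.66 CPM in ADC tumors. It was below the own lung in 4 of 6 tumors, all but those of m335, as was H2-Oa, which ranged from 9.15 to 15.7 CPM in normal lungs and from 3.55 to 12.6 CPM in 5 tumors and stood at 197 CPM in the ADC tumor of m335. The log2 fold change for all tumors was -1.20 for H2-Ob (SE 0.78, edgeR adjusted p = 0.378) and -0.35 for H2-Oa (SE 0.92, adjusted p = 0.853). Without the ADC tumor of m335 it was -1.40 for H2-Ob (SE 0.41, adjusted p = 0.0403) and -0.73 for H2-Oa (SE 0.30, adjusted p = 0.124).

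Markers of cells that carry class II also differed between libraries. The summed level of 8 B cell genes was 108 to 348 CPM in normal lungs, 53.6 to 124 CPM in 5 tumors and 526 CPM in the ADC tumor of m335; none of the 8 had a library with 0 counts. The 9 dendritic cell genes summed to 142 to 358 CPM in normal lungs, 138 to 198 CPM in the 5 tumors and 459.5 CPM in the ADC tumor of m335. In that tumor 6 of the 9 were above the own lung, while Zbtb46, Clec9a and Cd209a were below it. Between 0 and 5 of the 9 were above the own lung in each of the 5 tumors. The 8 alveolar macrophage genes in the table summed to 473 to 9236, 401 to 3128 and 662 CPM, most of it Chil3 at the top of the range (8713 CPM). Of these 8 genes, 7 were above the own lung in the ADC tumors of m372 and m378, 6 in the ADN tumor of m350 and the ADC tumor of m335, 3 in the ADN tumor of m368 and 2 in that of m335. The 10 genes of monocytes and other macrophages summed to 496 to 816, 399 to 625 and 1477 CPM. Alveolar type 2 cell genes (8) summed to 40136 to 54949 CPM in normal lungs, 104487 to 131373 CPM in the 5 tumors and 34509 CPM in the ADC tumor of m335. Of these 8 genes, 3 were above and 5 below the own lung in the ADC tumor of m335, and 6 to 8 were above it in the 5 tumors. The part of each cell type in the class II levels was not tested.

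The class I heavy chains H2-K1 and H2-D1, which present peptides to CD8 T cells, were below the own lung in 5 of 6 tumors. H2-K1 measured 1457, 1515, 2004, 905 and 1541 CPM in normal lungs, 955, 664 and 1114 CPM in ADN tumors and 5476, 835 and 1011 CPM in ADC tumors. H2-D1 measured 5173, 2051, 2505, 3061 and 2075 CPM in normal lungs, 2697, 1344 and 1381 CPM in ADN tumors and 11471, 2789 and 1447 CPM in ADC tumors. The ADC tumor of m335 was above every other library in both genes, and the other tumors overlapped the range of normal lungs. With all libraries the log2 fold changes were -0.30 for H2-K1 (SE 0.51, edgeR adjusted p = 0.77) and -0.30 for H2-D1 (SE 0.39, adjusted p = 0.683); without that tumor they were -0.63 (SE 0.17, adjusted p = 0.0324) and -0.57 (SE 0.16, adjusted p = 0.0343). Without the mouse block the signs turned, to 0.18 for H2-K1 and 0.24 for H2-D1.

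B2m, the light chain shared by all class I molecules, measured 928, 1653, 1518, 939 and 1188 CPM in normal lungs, 643, 724 and 916 CPM in ADN tumors and 7744, 482 and 721 CPM in ADC tumors. In the 5 tumors other than the ADC tumor of m335, B2m lay below every normal lung, a trait whose share over all genes was not determined. The ADC tumor of m335 was 8.35 times its normal lung and 12.1 times the ADN tumor of the same mouse. The log2 fold change was -0.34 (SE 0.73, edgeR adjusted p = 0.819) with all libraries, 0.59 without the mouse block, and -0.78 (SE 0.15, adjusted p = 0.00763) without that tumor.

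H2-Q7 and H2-Q6, non-classical heavy chains, were below the own lung in 5 of 6 tumors. H2-Q7 measured 68.0, 113, 210.5, 46.2 and 129.8 CPM in normal lungs, 23.6, 47.8 and 64.7 CPM in ADN tumors and 374, 14.6 and 30.6 CPM in ADC tumors. H2-Q6 ranged from 18.3 to 53.7 CPM in normal lungs and from 5.92 to 12.1 CPM in 5 tumors, with 61.8 CPM in the ADC tumor of m335. Without that tumor the log2 fold changes were -1.59 for H2-Q7 (SE 0.16, edgeR adjusted p = 0.000371) and -1.87 for H2-Q6 (SE 0.19, adjusted p = 0.000371). With it they were -1.09 (SE 0.79, adjusted p = 0.433) and -1.41 (SE 0.66, adjusted p = 0.217).

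H2-M3, which presents formylated peptides, ranged from 18.2 to 26.1 CPM in normal lungs and from 10.6 to 17.9 CPM in the 5 tumors, and Cd1d1, which presents lipids to NKT cells, from 10.6 to 19.7 and from 4.31 to 6.05 CPM. These ranges did not overlap for either gene, and the ADC tumor of m335 was above both, at 89.7 CPM for H2-M3 and 22.1 CPM for Cd1d1. With all libraries the log2 fold changes were -0.30 for H2-M3 (SE 0.55, edgeR adjusted p = 0.781) and -1.11 for Cd1d1 (SE 0.49, adjusted p = 0.194), and without that tumor -0.73 (SE 0.16, adjusted p = 0.0137) and -1.41 (SE 0.22, adjusted p = 0.00248). H2-Q4 was below the own lung in 4 of 6 tumors, the ADN tumor of m368 being the other exception, and H2-T23 in 5 of 6. H2-Q6, H2-Q7, H2-Q4, H2-T23, H2-DMb1, H2-DMb2 and Cd1d1 share between 24.3% and 34.9% of their 50-base words with transcripts of other genes, so reads could have been divided wrongly among copies. These were the members at or above 20%, of 31 searched. Below that, H2-D1 shared 14.3% and H2-K1 8.79%.

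Nlrc5, the class I counterpart of Ciita, measured 18.6, 14.8, 21.2, 8.94 and 15.2 CPM in normal lungs, 9.16, 4.46 and 8.14 CPM in ADN tumors and 69.7, 3.69 and 4.85 CPM in ADC tumors. It was below the own lung in 5 of 6 tumors. The log2 fold change was -0.996 (SE 0.62, edgeR adjusted p = 0.354) with all libraries and -1.36 (SE 0.19, adjusted p = 0.00152) without the ADC tumor of m335.

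Tap1 and Tap2, the subunits of the peptide transporter, and Tapbp (tapasin), which bridges it to class I molecules, were also below the own lung in 5 of 6 tumors. Tap1 measured 58.9, 79.3, 106, 53.9 and 87.5 CPM in normal lungs, 35.0, 72.7 and 37.8 CPM in ADN tumors and 514, 33.0 and 44.8 CPM in ADC tumors. Tap2 and Tapbp lay below every normal lung in the 5 tumors, at 44.7 to 67.8 CPM against 70.8 to 139 CPM and at 218 to 269 CPM against 302 to 403 CPM. In the ADC tumor of m335 they stood at 254 and 904 CPM. The log2 fold change of Tap1 was -0.26 (SE 0.77, edgeR adjusted p = 0.873) with all libraries and -0.76 (SE 0.20, adjusted p = 0.0241) without that tumor. Erap1, the aminopeptidase that trims peptides in the endoplasmic reticulum, overlapped between the groups, at 20.7 to 42.0 CPM in normal lungs and 13.3 to 34.4 CPM in the 5 tumors.

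The immunoproteasome subunits Psmb8, Psmb9 and Psmb10 replace the constitutive subunits Psmb5, Psmb6 and Psmb7. Psmb9 measured 53.8, 47.5, 64.7, 51.7 and 56.7 CPM in normal lungs, 24.05, 43.4 and 32.9 CPM in ADN tumors and 316, 22.6 and 23.1 CPM in ADC tumors. Psmb8 ranged from 88.2 to 121 CPM in normal lungs and from 60.8 to 94.7 CPM in 5 tumors, and stood at 964 CPM in the ADC tumor of m335. Psmb10 ranged from 96.3 to 173 CPM in normal lungs and from 46.0 to 86.1 CPM in the 5 tumors, with 286 CPM in that tumor. For Psmb9 the log2 fold change was -0.39 (SE 0.70, edgeR adjusted p = 0.778) with all libraries and -0.91 (SE 0.20, adjusted p = 0.0113) without it. The fold change of Psmb8 over all tumors was near 0 (log2 0.02, SE 0.69) and -0.18 under library totals, which moved the median of all genes by a like amount, from -0.03 to -0.22.

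As a log2 ratio within each library, Psmb9 over Psmb6 ran from -1.03 to -0.34 in normal lungs, from -2.08 to -1.25 in 5 tumors, and was 1.29 in the ADC tumor of m335. Psmb10 over Psmb7 ran from 0.56 to 1.5005 in normal lungs and from -0.99 to -0.05 in the 5 tumors, with 1.45 in that tumor, the only one inside the normal range. Psmb8 over Psmb5 ran from -0.32 to 0.40 in normal lungs and from -0.91 to -0.30 in the 5 tumors, so these overlapped, and it was 2.51 in the ADC tumor of m335. The constitutive subunits alone had log2 fold changes of 0.18 for Psmb5, 0.17 for Psmb6 and 0.48 for Psmb7 (SE 0.20, 0.16 and 0.23), none of them called by edgeR.

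**Figure D4:**
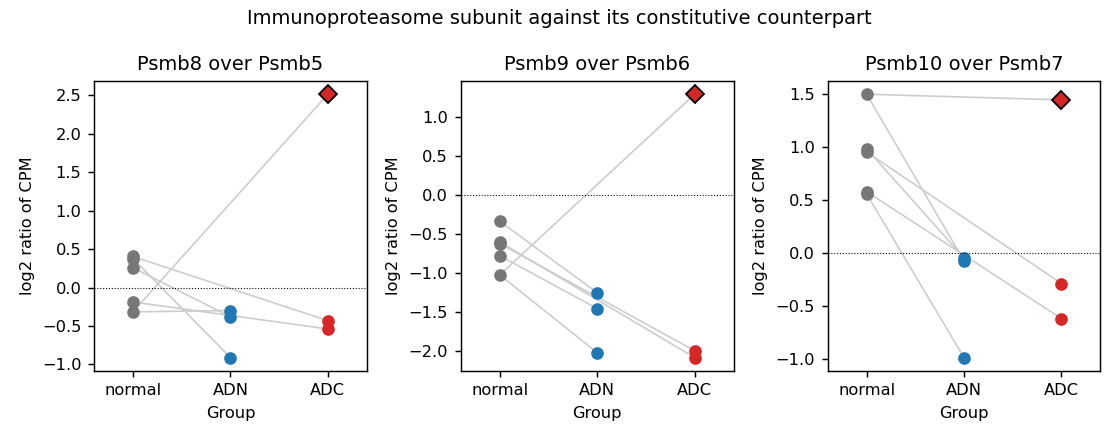
Log2 ratio of the CPM of each immunoproteasome subunit to that of its constitutive counterpart, by library and group; grey lines join a tumor to the normal lung of its mouse and the diamond is the ADC tumor of m335. The other tumors lie below all normal lungs for Psmb9 over Psmb6 and Psmb10 over Psmb7, and overlap them for Psmb8 over Psmb5.

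The chaperones that fold class I heavy chains, Canx (calnexin), Calr (calreticulin) and Pdia3 (ERp57), were the class I members above the own lung in 6 of 6 tumors. They also fold many other glycoproteins. Under library totals Canx in the ADN tumor of m368 (293 CPM) was below its own lung (311 CPM). Pdia3 measured 179, 333, 308, 256 and 271 CPM in normal lungs, 434, 562 and 387 CPM in ADN tumors and 460.1, 343 and 439.6 CPM in ADC tumors. Under TMM scaling every tumor lay above every normal lung. Under library totals the ADC tumor of m372 (317 CPM) lay below the normal lungs of m368 (355 CPM) and m350 (327 CPM). Pdia3 was the 1 class I member called in all tumors (log2 fold change 0.73, SE 0.20, edgeR adjusted p = 0.046). Leaving out any 1 of the 5 mice, the normal lung or the ADN tumor of m335 ended that call, as did the mice at 7 months alone, library totals and testing all genes without the filter on low counts.

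Calr ranged from 438 to 688 CPM in normal lungs and from 614 to 1188 CPM in tumors (log2 fold change 0.51, SE 0.18, edgeR adjusted p = 0.112), and Canx from 173 to 291 and from 242 to 383 CPM (0.46, SE 0.20, adjusted p = 0.177). Hspa5, the BiP chaperone outside the member list, had a log2 fold change of 0.72 (SE 0.21, adjusted p = 0.065). In the m335 pair, Calr of the ADC tumor was 0.74 times, Pdia3 1.06 times and Canx 1.58 times the ADN tumor of the same mouse.

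The pair of tumors of m335 gave a comparison within 1 animal, with 1 library each and so no test. The ADC tumor was above the ADN tumor in 12 of 12 class II members, with a median log2 difference of 1.55, and in 19 of 20 class I members, with a median of 2.21. The exception was Calr. The members furthest apart were Tap1 at 514 against 35.0 CPM, H2-Q7 at 374 against 23.6 CPM and H2-Oa at 197 against 12.6 CPM.

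Among the other genes of the pathway, 34 of 35 listed were tested, and in tumors against normal lungs 0 were called higher and 1 lower. That gene was H2-T24, a class I-like gene, at 14.2 to 43.5 CPM in normal lungs and 0.769 to 6.12 CPM in tumors (log2 fold change -2.58, SE 0.43, edgeR adjusted p = 0.00629). The ADC tumor of m335 was low with the others for this gene, at 5.21 CPM.

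The interferon-gamma gene Ifng was at most 1.42 CPM in all libraries but the ADC tumor of m335, which had 14.7 CPM, and was not tested because of its low counts. Irf1, an interferon-induced factor that acts on class I promoters, measured 329 CPM in that tumor, against 92.8 to 128 CPM in normal lungs and 47.7 to 62.1 CPM in the 5 other tumors. Over all tumors the log2 fold change of Irf1 was -0.52 (SE 0.51, edgeR adjusted p = 0.574).

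The sum of 15 interferon response genes was 244 to 412 CPM in normal lungs, 115 to 188 CPM in the 5 tumors and 4079 CPM in the ADC tumor of m335, and all 15 were above the own lung in that tumor. The 9 T cell genes summed to 93.4 to 503, 27.7 to 70.5 and 566 CPM, and the 6 natural killer cell genes to 18.1 to 64.5, 1.55 to 8.87 and 47.9 CPM, 2 of which had a library at 0 counts. Of the 6 natural killer cell genes, 4 were above the own lung in the ADC tumor of m335, with Ncr1 and Prf1 below it. Endothelial cell genes (8), which mark a class I-bearing cell type of normal lung, summed to 2592 to 4168 CPM in normal lungs, 605 to 949.9 CPM in the 5 tumors and 538 CPM in the ADC tumor of m335. Thymus genes (9) summed to 462 CPM in the normal lung of m372 and 50.0 CPM in that of m350, against 2.098 to 19.6 CPM in the other libraries, and T cell genes were highest among normal lungs in that of m372, at 503 CPM. The part of these cells in the class I and class II levels was not tested.

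Counting was not stated to use strand in the sources used here. Exons of 12 members overlap exons of a gene on the opposite strand, among them Tap1 and Psmb9 (212 bases shared with each other), Tapbp (682 bases with Gm19412) and Erap1 (834 bases with Cast). Reads from such pairs cannot be told apart without strand.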

How the data were processed

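RNA from 5 normal lungs and 6 tumors was sequenced as poly-A libraries (Ion Total RNA-Seq kit, Ion Proton), per the labels' protocols. The deposited values are estimated counts per transcript made by the authors, whole for most genes (78.4% to 86.2% of gene sums per library). The submitters' processing notes name STAR 2.4.1d, Bowtie2 2.1.0, Partek and mm10, with no role or order. The sources used here give neither aligner settings nor strand use. Transcript counts were summed by gene and rounded. Total counts per library set the counting precision; every member had at least 90 counts per library.

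Genes passing edgeR's filter on low counts (15175) were tested with edgeR 4.0.16 (quasi-likelihood, TMM) in R 4.3.3, groups and mouse as terms, over all libraries. SE is the log2 fold change divided by the square root of F. Pairing comes from the mouse numbers in the labels; correlations of tumor and own-lung deviations ran from -0.06 to 0.29. Alternatives were DESeq2 1.42.0, no mouse block, library totals, no filter, left-out mice or libraries of m335, and mice at 7 months. The test of the mouse term was added after the data were seen. Per-tumor log2 differences used a pseudocount of 0.5 CPM. The edgeR script was tested on simulated data. No pair of replicates matched within sampling noise.

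All 32 members were named; of the other pathway genes, those called in tumors against normal lungs, plus Psmb5, Psmb6, Psmb7, Ifng, Irf1 and 1 gene not reported here, were to be named. Genes outside that rule (H2-Q2, Ddx3y, Chil3 and Hspa5) were chosen after their values were seen. Members and lists were chosen with earlier results of these data known. Lengths per kilobase came from GENCODE M21 for 43 of 44 member transcripts; Ifi30 was left out.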

Additional observations from a re-analysis of the deposited data

Results flagged for a closer look

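In 19 of the 32 members 1 tumor stood far from the other 5 on the log2 scale, with a gap above Dixon's 95% critical value, a rule that chance meets in about 1 of 20 groups. In 18 of the 19 the tumor was the ADC tumor of m335, and it was the highest. The class II values there were 5077 CPM for H2-Ab1, 365 for H2-DMa, 197 for H2-Oa, 37.0 for H2-Ob and 1021 for Ctss. The class I heavy chains and light chain had 5476 CPM for H2-K1, 11471 for H2-D1, 61.8 for H2-Q6, 89.7 for H2-M3, 7744 for B2m and 22.1 for Cd1d1. The transporter and loading genes had 514 CPM for Tap1, 254 for Tap2 and 904 for Tapbp. The immunoproteasome genes had 964 CPM for Psmb8, 316 for Psmb9 and 286 for Psmb10, and the activator Nlrc5 had 69.7 CPM. The remaining gene was Canx, low in the ADN tumor of m335 at 242 CPM. Among the 5 normal lungs 0 of 32 members were set apart by this rule. The 18 values come from 1 library and are not independent of one another. The share of all genes set apart by this rule was not determined, so the count cannot be read as particular to these members.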

How the results depend on the processing

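Without the replicate block, that is without pairing by mouse, the log2 fold change of tumors against normal lungs turned positive for H2-Oa (1.70), H2-K1 (0.18), H2-D1 (0.24), H2-M3 (0.22), B2m (0.59), Tap1 (0.67), Psmb9 (0.49) and Nlrc5 (0.079), and the class I median moved from -0.31 to 0.13; the cause was not tested. Genes called without the block numbered 904 higher and 1338 lower of 15175 for all tumors, 1779 for ADN, 1546 for ADC and 3 for ADC against ADN. Class II members called were 2 for all tumors and 3 for ADC, and class I members 1 for ADN. DESeq2 called 3286 genes for all tumors, 2931 for ADN, 1858 for ADC and 125 for ADC against ADN. It called 4, 1, 10 and 1 class II members in those comparisons, and 2 and 8 class I members in all tumors and ADN tumors. Library totals moved the median of all genes from -0.03 to -0.22, and Psmb8 turned to -0.18. They left 0 class II calls for ADC, beside 104 genes higher and 817 lower. Class I calls were 0 for all tumors, beside 359 genes higher and 1712 lower. With no filter on low counts class I calls were 0 for all tumors, beside 462 genes higher and 1140 lower of 21124. For ADC against ADN 5 genes were called. Mice at 7 months gave 3040 genes for all tumors and 2998 for ADC. They gave 3 and 6 class II members for these, and 12 and 8 class I members for all and ADC tumors, with Psmb8 at -0.59. The ADN tumor of m350 stood alone at 7 months, so no calls are given for ADN tumors.

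Leaving out 1 mouse, or 1 library of m335, gave 919 (without mouse m378) to 3377 (without the ADC tumor of m335) genes for all tumors. The ranges were 0 to 1972 for ADN (0 without the ADN tumor of m335, and 2195 genes at an unadjusted p under 0.05), 66 to 1067 for ADC and 0 to 2 for ADC against ADN. Class II members called ran from 0 to 6 for all tumors, 0 to 1 for ADN and 0 to 1 for ADC. Class I members ran from 0 to 16 for all tumors, 0 to 6 for ADN and 0 to 4 for ADC. Under these settings the signs of Ctss (-0.20 to 0.75), Psmb8 (-0.49 to 0.30), Tap1 (-0.82 to 0.090), Erap1 (-0.51 to 0.20) and H2-Oa (-1.04 to 0.028) turned in at least 1. The class II median stayed between 0.36 and 0.85 and the class I median between -0.70 and -0.19. All 36 per-tumor medians under other pseudocounts or library totals moved by less than the spread between tumors, but under library totals the class II medians of the ADN tumors of m368 and m350 turned from 0.20 and 0.023 to -0.040 and -0.094. No member had fewer than 90 counts in a library; the part of depth in the calls was not tested. The cause of each of these changes was not tested.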
